A study of Mus musculus with 2 samples.

Results

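Hypoxia-marked spots were the places within the epithelial breast cancer brain metastasis of section 2 where *Vegfa*, *Ndrg1* and *Adm* together stood highest. They numbered 72 of the 722 spots that qualified as epithelial tumor (members and eligible spots in the plots), of 4017 tissue spots in that section and 7423 in the series. Visium spatial transcriptomics counts transcripts at a grid of spots, and the RNA of a spot may stem from more than 1 cell and more than 1 cell type. A spot qualified with at least 10000 UMIs (unique molecular identifiers, each standing for 1 captured probe molecule) and with *Epcam*, *Krt7* and *Krt8* summing to at least 5000 CPM (UMIs of a gene per 1000000 UMIs). Qualifying spots were ranked by the summed CPM of *Vegfa*, *Ndrg1* and *Adm*. The hypoxia-marked spots were thus chosen by measured levels of these 3 genes: they are the top 10%, and the bottom 30%, 217 spots, served as the comparison.

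Section 2 came from 1 untreated mouse whose cerebellum had been injected with HP-B6 +cre organoids, and section 1 from 1 untreated mouse given HP-F1 +cre organoids, while the cell line entry reads B6-HP for both. Both organoid lines carried the HP genotype, activating HER2 V777L together with PIK3CA H1047R. The HER2 transgene is human and sits behind an actin promoter, and Cre-expressing adenovirus given into the mammary gland switched on the alleles in the donor tumors. The organoids were labelled with luciferase and selected as stable clones, and the methods give the injected B6 hosts an age of 5 months. Direct injection skips the steps by which tumor cells reach the brain. Each section is 1 animal, and its spots share 1 tissue, 1 slide and 1 library. There was therefore no replicate check and no p-value was computed. The values below are pooled CPM (the UMIs of a gene over all UMIs of a group of spots) and ratios between groups, each with an exact 95% interval that covers counting error only. Genes with at least 20 CPM over the 722 spots were compared, and "higher" or "lower" below means a ratio of at least 1.5 or its inverse.

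When oxygen is short, prolyl hydroxylases of the Egln family stop marking the alpha subunits of hypoxia-inducible factor (HIF) for destruction. HIF then pairs with ARNT and switches on genes for glucose uptake, glycolysis, lactate export, pH control and vessel growth. *Vegfa* encodes the main growth factor for blood vessels, *Ndrg1* a stress-responsive protein and *Adm* the vasodilating peptide adrenomedullin, and all 3 are known HIF targets. In solid tumors this response is known from regions far from perfused vessels.

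The values of the 3 genes describe the choice and test nothing. The summed CPM ran from 1463 in the lowest hypoxia-marked spot to 4222 in the highest, with a median of 2135. The highest qualifying spot left out was at 1461 CPM. In the bottom 30% the sum ran from 43.2 to 264, with a median of 190. Pooled *Vegfa* was 1038 CPM in hypoxia-marked spots and 62.4 CPM in the comparison spots, *Ndrg1* 832 and 103 CPM, and *Adm* 381 and 24.3 CPM. *Vegfa* gave 46.1% of the sum, *Ndrg1* 36.95% and *Adm* 16.9%. The epithelial markers were at nearly the same level in both groups, with *Epcam* at 1951 and 1813 CPM, *Krt7* at 4024 and 3957 CPM, and *Krt8* at 1665 and 1631 CPM. Both groups had to reach 5000 CPM of these markers to qualify, so their levels describe the choice as well. Hypoxia-marked spots held a median of 37901 UMIs (range 12477 to 73392) and the comparison spots 43780 (range 10830 to 78940).

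Other genes of the HIF response were higher in the same spots, with *Egln3* far ahead. *Egln3*, a prolyl hydroxylase that is itself a HIF target, ran from 167 CPM in the lowest hypoxia-marked spot over a median of 962 to 2611 CPM in the highest. In the bottom 30% its median was 42.4 CPM and its highest value 289 CPM, and 70 of the 72 hypoxia-marked spots lay above that highest value. Pooled, the ratio was 18.5 (interval 16.8 to 20.4). *Ak4*, a mitochondrial adenylate kinase, followed with a ratio of 11.5 (8.77 to 15.2), and *Bnip3*, a receptor for the removal of mitochondria, with 9.06 (7.43 to 11.1). Across the 8402 genes compared, 264 (3.14%) were higher and 510 (6.07%) were lower, or 338 and 415 with the TMM scaling of edgeR, and the median ratio was 0.962. These counts come from the contrast that chose the spots and are a description. The 20 CPM filter was pooled over all qualifying spots, so a gene could pass while low in either group. *Ak4* was at 7.44 CPM in the comparison spots and *Fabp7* at 3.64 CPM in hypoxia-marked spots. Higher and lower genes numbered 442 and 1376 with a filter of 5 CPM, and 82 and 76 with one of 100 CPM. The excess of lower genes thus depends on the filter. Of 36 listed HIF target genes besides the 3 used for the choice, 34 were measured and 26 passed the 20 CPM filter, of which 22 were higher and 0 lower. Their median ratio was 3.36. Summed, they ran from 4261 over a median of 7590 to 13237 CPM in hypoxia-marked spots, and 66 of the 72 lay above every comparison spot. Among the 26 that passed the filter, *Anln* had the smallest ratio at 0.747, and *Igfbp3* stood at 0.840.

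The hypoxia response element, the short DNA site that HIF binds, has ACGTG or GCGTG at its core. The stretches below lie upstream of the start of 6 genes of this response and show where such letters stand. Only genes with a match are shown, each in a window that holds it, so they are not a random draw of promoters. They are RefSeq promoters on GRCm38.p6, each 90 bases long and read 5′ to 3′ on the strand of the gene, with every ACGTG or GCGTG and its reverse complement in capitals.
*Egln3*, chr12:54204035-54204124, minus strand: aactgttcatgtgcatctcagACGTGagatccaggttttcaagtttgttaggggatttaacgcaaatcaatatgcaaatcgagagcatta
*Slc2a1*, chr4:119108655-119108744, plus strand: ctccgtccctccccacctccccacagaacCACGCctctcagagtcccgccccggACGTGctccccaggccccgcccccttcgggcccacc
*Slc16a3*, chr11:120948977-120949066, plus strand: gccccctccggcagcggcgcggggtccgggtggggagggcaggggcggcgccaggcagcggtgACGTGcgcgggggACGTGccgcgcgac
*Car9*, chr4:43506936-43507025, plus strand: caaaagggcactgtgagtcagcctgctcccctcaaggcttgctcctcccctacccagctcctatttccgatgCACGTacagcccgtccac
*Ankrd37*, chr8:45999851-45999940, minus strand: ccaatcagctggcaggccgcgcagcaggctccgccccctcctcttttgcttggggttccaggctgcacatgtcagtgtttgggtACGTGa
*P4ha1*, chr10:59323206-59323295, plus strand: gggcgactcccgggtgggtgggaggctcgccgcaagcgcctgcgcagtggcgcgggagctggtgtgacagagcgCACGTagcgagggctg
In the 250 bases before the gene start, 10 of the 19 leading genes with a RefSeq promoter (of the 25 with the largest ratio) held ACGTG on either strand, or 52.6%. The share was 26.4% over 6693 of the genes compared and 18.5% over all 27025 genes of the table. With GCGTG included it was 78.9%, 64.3% and 41.5%. A CACGTG palindrome, as in an E-box, counts as ACGTG here. Matches of so few letters are a description of the windows and not of bound sites.

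Genes of glucose use were higher as a group. Of 17 glycolysis genes compared, 12 were higher and 0 lower, with a median ratio of 2.56, and 4 genes of the list also stand in the HIF target list. The summed list was higher in every hypoxia-marked spot (6362 CPM or more) than in any comparison spot (6221 CPM or less). *Slc16a3*, the lactate exporter MCT4, had the largest ratio at 8.04 (7.34 to 8.80). It ran from 160 over a median of 538 to 1348 CPM in hypoxia-marked spots, against a median of 61.9 CPM in the comparison. *Slc2a1*, the glucose transporter GLUT1, ran from 303 over a median of 861 to 1973 CPM in hypoxia-marked spots. In the bottom 30% it ran from 35.6 over 161 to 529 CPM. All but 11 hypoxia-marked spots stood above the whole comparison group, 61 of 72, and the ratio was 5.43 (5.10 to 5.79). *Hk2*, the inducible hexokinase, had a ratio of 4.50 (3.68 to 5.51). Further along the pathway *Pfkl* was at 3.54, *Aldoa* at 3.29, *Pgk1* at 3.66 and *Pkm* at 2.01. *Pdk1*, a kinase that restrains the oxidation of pyruvate in mitochondria, stood at 3.75 (3.29 to 4.27). The isoforms *Pfkm* (0.6999) and *Pdk3* (0.771) lay below 1. *Tpi1*, *Eno1* and *Ldha* were not analysed here.

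**Figure D1:**
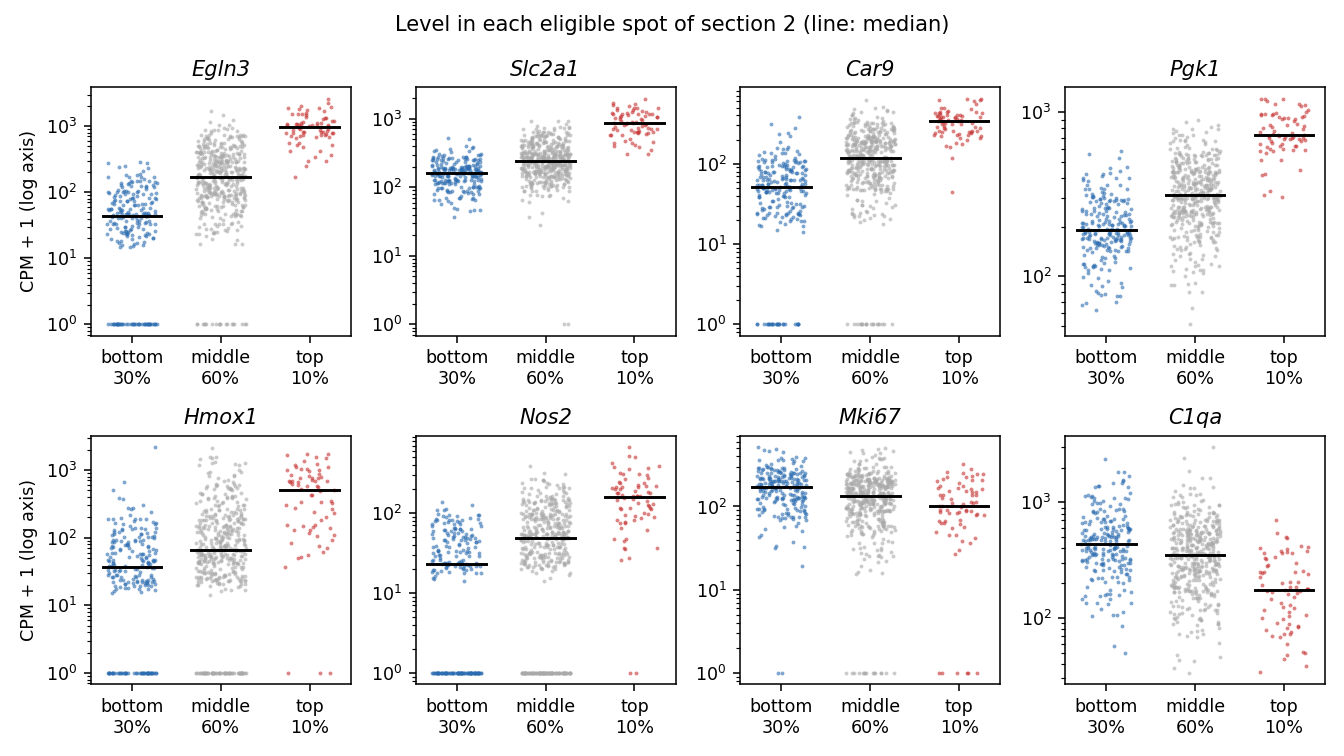
CPM plus 1 (log axis) of 8 genes in each of the 722 qualifying spots of section 2, split into the bottom 30% (blue), the spots between (grey) and the hypoxia-marked top 10% (red), with a black line at each median. *Egln3*, with medians of 42.4 and 962 CPM, and *Slc2a1*, with 161 and 861 CPM, separate the outer groups almost fully, *Hmox1* and *Nos2* spread widely among hypoxia-marked spots, and *Mki67* and *C1qa* lie lower there.

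The genes that carry and tune HIF itself were mostly level, apart from its feedback loops. *Hif1a* was at 130 CPM in hypoxia-marked spots and 152 CPM in the comparison, a ratio of 0.852 (0.756 to 0.957), and *Arnt*, the shared partner, was at 1.03. *Epas1*, the HIF-2 alpha gene, was lower at 0.654 (0.561 to 0.759). Its ratio was 0.802 with the comparison spots weighted to the distances of the hypoxia-marked spots from the tumor edge. At 5 and 6 grid steps from the edge, where 11 and 4 hypoxia-marked spots lay, that weighting rested on 4 and 3 comparison spots. Weighted ratios here and below carry no interval. Of 11 regulators compared, 3 were higher: *Egln3*, *Egln1* at 2.68 (2.40 to 2.995) and *Cited2*, a competitor for the coactivators of HIF, at 1.85. *Vhl*, the ubiquitin ligase subunit that removes HIF, had a ratio of 1.29, and *Hif1an* one of 0.983.

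Of 10 genes for acid and lactate handling, 3 were higher: *Slc16a3*, *Car9* and *Bsg*. *Car9*, a membrane carbonic anhydrase that acidifies the outside of hypoxic cells, ran from 43.5 over a median of 336 to 648 CPM in hypoxia-marked spots, against a highest value of 381 CPM in the comparison, with a ratio of 5.74 (5.16 to 6.39). *Bsg*, the chaperone of lactate transporters, was at 2633 and 1128 CPM. *Car2* was lower at 0.193, and its ratio was 0.361 under that weighting.

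Among 17 angiogenic factors and receptors, 7 were higher, all of them secreted factors, and 2 lower, both of them receptor genes. The VEGF-family ligand *Pgf* had a ratio of 4.75 (3.84 to 5.88), the peptide *Apln* 2.87 (2.37 to 3.49), the tip cell gene *Esm1* 2.70 (2.04 to 3.55) and *Angpt2*, which loosens vessels, 2.53 (2.12 to 3.02). The main VEGF receptor *Kdr* was lower at 0.602 (0.430 to 0.825) and the adrenomedullin coreceptor *Ramp2* at 0.425 (0.307 to 0.576), and weighted by edge distance the ratios were 0.752 and 0.550. *Angpt2* and *Apln* were patchy, with medians over hypoxia-marked spots of 41.4 and 47.2 CPM but highest spots of 596 and 752 CPM.

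Genes of the antioxidant response driven by NRF2 stood among the leading genes, and the list was chosen after those values had been seen. Of its 14 genes compared, 7 were higher and 0 lower, with a median ratio of 1.63. *Hmox1* is counted in this list, in the HIF target list and in the list of hypoxic or alternatively activated macrophage genes. *Hmox1*, which degrades heme, had a ratio of 8.02 (7.30 to 8.83) and spread from 0 over a median of 500 to 1741 CPM in hypoxia-marked spots. The comparison spots had a median of 35.9 CPM, but 1 of them reached 2174 CPM, so no hypoxia-marked spot stood above all of them, and the ratio was 13.8 when weighted by edge distance. *Gclc* and *Gclm*, the subunits that make glutathione's precursor, had ratios of 5.42 (4.82 to 6.11) and 2.65 (2.42 to 2.89), *Srxn1* 5.36 (4.46 to 6.46) and *Osgin1* 3.48 (2.96 to 4.10). Across the 72 hypoxia-marked spots the rank correlation of *Hmox1* (Spearman rho) was 0.786 with *Gclc*, 0.735 with *Srxn1*, 0.422 with *Slc2a1* and -0.0188 with *Egln3*. These spots share 1 library and touch each other, so the values are a description. The heat shock gene *Hspa1a* had a ratio of 7.32 (5.93 to 9.07), while 7 of the 10 heat shock genes compared were neither higher nor lower.

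Some genes for signals to other cells were higher too. Of 12 genes compared from the cytokine and chemokine list, 7 were higher and 0 lower, with a median ratio of 1.98. That list also holds the enzyme genes *Nos2* and *Ptgs2*, both among the higher ones, and *Ptgs2* is counted again under prostaglandin synthesis. *Nos2*, the inducible nitric oxide synthase, ran from 0 over a median of 158 to 667 CPM in hypoxia-marked spots, with a ratio of 5.89 (5.07 to 6.86). The neutrophil attractants *Cxcl5* and *Cxcl1* had ratios of 3.06 (2.57 to 3.63) and 2.91 (2.56 to 3.31), and *Lif* 2.40 (2.19 to 2.63). Of 5 genes for prostaglandin synthesis 2 were higher and 1 lower, with *Ptges* at 4.80 (4.11 to 5.61) and *Ptgs2* at 3.04 (2.52 to 3.66). Ligands of the EGF receptor family, a list likewise chosen with the values known, were higher in 3 of 4 cases, *Areg* at 4.95 (4.33 to 5.66), *Hbegf* at 2.99 (2.55 to 3.49) and *Tgfa* at 2.62 (2.22 to 3.08). *Tfrc*, the transferrin receptor for iron uptake, had a ratio of 3.58 (3.11 to 4.12). *Fndc1*, a fibronectin-domain gene, ran from 80.1 over 375 to 699 CPM in hypoxia-marked spots, with a ratio of 5.43 (4.92 to 5.999). Among the remaining leading genes were *Ankrd37* (6.14), *Smtnl2* (5.41), *P4ha1* (5.08), *Kctd11* (4.22), *Ero1l* (4.05), *Tnfrsf23* (3.86), *Bhlhe40* (3.83) and *Prelid2* (3.79).

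Of the 17 genes of the integrated stress and unfolded protein responses, 4 were higher, *Trib3* (2.72), *Ddit3* (2.02), *Ppp1r15a* (1.96) and *Asns* (1.65), all known targets of ATF4. The chaperones *Hspa5* and *Hsp90b1* were at 1.13 and 1.05. Genes of oxidative phosphorylation moved little, and 0 of 24 were higher or lower. All 24 had ratios below 1, from 0.736 (*Atp5o*) to 0.971 (*Uqcrfs1*), but the median of all 8402 genes compared was itself below 1, at 0.962. The median of the 24 was 0.869. Under the alternatives run, *Uqcrfs1* reached 1.13 and *Atp5c1* 1.06, so the place of the largest ratios below 1 depends on the processing. Cell cycle genes stood lower. None of the 21 compared had a ratio above 1, 10 were lower, and the median was 0.669. *Mki67*, present in cycling cells, was at 117 CPM in hypoxia-marked spots and 181 CPM in the comparison, a ratio of 0.647 (0.573 to 0.730). The spindle motor *Kif11* (0.514) and the replication gene *Mcm5* (0.528) had the smallest ratios. Hypoxia-marked spots overlapped with the comparison for *Mki67*, with medians of 101 and 170 CPM and highest spots of 320 and 514 CPM.

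Tumor identity genes were mixed. Of 20 epithelial and keratin genes, 2 were higher (*Areg* and *Lcn2*, the latter at 1.93) and 4 lower. Among the lower genes were the basal keratins *Krt15* (0.333), *Krt5* (0.480) and *Krt14* (0.656), and *Sprr1a* (0.587), of which *Krt14* and *Sprr1a* stood at 0.735 and 1.15 when weighted by edge distance, while *Cdh1* (0.978) and *Krt19* (1.07) were level. Of 15 mesenchymal transition genes, 2 were higher, the urokinase receptor *Plaur* (2.40) and the transcription factor *Snai1* (1.73), and 4 were lower, with *Snai2* at 0.349 and *Tgfbi* at 0.523. Interferon response genes had a median ratio of 1.01, death genes 1.04 and genes of cholesterol and fatty acid synthesis 0.933. Of 12 immediate early genes 4 were higher, led by *Ier3* at 2.39.

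Transcripts of the macrophage list were scarcer in hypoxia-marked spots. The 15 listed macrophage genes summed to 1728 CPM there and 4052 CPM in the comparison, a ratio of 0.427 (0.414 to 0.440), and 9 of the 12 compared were lower and 0 higher. Over single spots the sum ran from 528 to 7570 CPM (median 1532) and from 751 to 16141 CPM (median 3399). With the comparison weighted to the edge distances of the hypoxia-marked spots, the summed ratio was 0.512 and 9 of the 12 were lower. *Apoe*, which carries lipids, was the largest part of both sums, at 706 and 2041 CPM. The complement gene *C1qa* was at 210 and 503 CPM and the receptor *Csf1r* at 59.7 and 103 CPM, a ratio of 0.580 (0.488 to 0.685). Because a spot pools its cells, fewer macrophages, less RNA per macrophage and RNA of these genes from other cell types cannot be told apart. All 5 genes of MHC class II compared were lower, with *Cd74* at 0.404 (0.358 to 0.454) and *H2-Eb1* at 0.243. The ligands of *Csf1r* were level: *Il34* was at 71.4 and 61.3 CPM (ratio 1.16, 0.985 to 1.37) and *Csf1* at 24.0 and 18.8 CPM (1.28, 0.948 to 1.70). *Arg1*, the arginase of alternatively activated macrophages, was at 335 and 290 CPM, a ratio of 1.16 (1.07 to 1.25). In the list of hypoxic or alternatively activated macrophage genes *Hmox1*, *Mmp12* (2.85) and *Lgals3* (1.57) were higher, and *Spp1* (0.532) and *Gpnmb* (0.235) lower. With the comparison weighted to the same edge distances the last 2 ratios were 0.815 and 0.802.

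Transcripts of the neutrophil list were few but more frequent in hypoxia-marked spots. The 10 listed genes summed to 154 and 62.5 CPM, a ratio of 2.46 (2.16 to 2.79), with single spots from 0 to 928 CPM (median 132) and from 0 to 399 CPM (median 45.2). Most of the 154 CPM came from *S100a9* (61.2), *S100a8* (32.8), *Il1r2* (23.3) and *Csf3r* (22.9). *Mmp8* and *Ngp*, near the floor, had ratios of 0.685 and 0.343, and *Camp* was at 0 in hypoxia-marked spots. *S100a9*, 1 of the 10 and alone in passing the filter, had a ratio of 3.43 (2.75 to 4.27), and of 5.60 when weighted by edge distance. Red cell transcripts, nearly all of hemoglobin genes, summed to 68.5 and 41.3 CPM, a ratio of 1.66 (1.38 to 1.98), or 2.80 when weighted. Single spots ran from 0 to 1017 CPM (median 27.1) and from 0 to 857 CPM (median 0), so a few spots weigh heavily. Endothelial genes were lower in 6 of 10 cases and higher in 0, with a summed ratio of 0.698 (0.655 to 0.742). *Cldn5* of the blood-brain barrier was at 0.418 (0.344 to 0.505) and *Flt1* at 1.31 (1.15 to 1.48). Weighted to the same edge distances, 1 of 10 was lower and the summed ratio was 0.918. Lymphocyte genes were at low levels in both groups: the T and NK cell genes summed to 13.8 and 15.9 CPM and the B and plasma cell genes to 18.6 and 20.3 CPM.

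Glial and neuronal genes made up most, though not all, of the 25 genes with the smallest ratios. The 25 were led by the glial or neuronal genes *Fabp7* (0.104), *Aqp4* (0.128), *Nfasc* (0.129), *Slc1a3* (0.141) and *Gfap* (0.148). *Gfap*, the filament of reactive astrocytes, had a median of 40.8 CPM in hypoxia-marked spots and 400 CPM in the comparison, where it reached 5717 CPM. Of 7 oligodendrocyte genes 6 were lower, as were 6 of 7 astrocyte genes, and the exception in the latter was *Gja1*, at 3436 and 2917 CPM. The comparison spots also lay nearer to the edge of the tumor, at a median of 2 steps against 3, and the part of position in these ratios was not tested beyond the weighting. Weighted to the same edge distances, the ratio of *Gfap* was 0.454 and that of *Aqp4* 0.386, and 24 of the 25 genes were still lower. The summed oligodendrocyte genes had a ratio of 0.406 (0.375 to 0.438) and, weighted, of 0.767, with 3 of 7 genes lower, and 5 of 7 astrocyte genes were then lower. All 25 leading higher genes were higher under that weighting too.

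**Figure D2:**
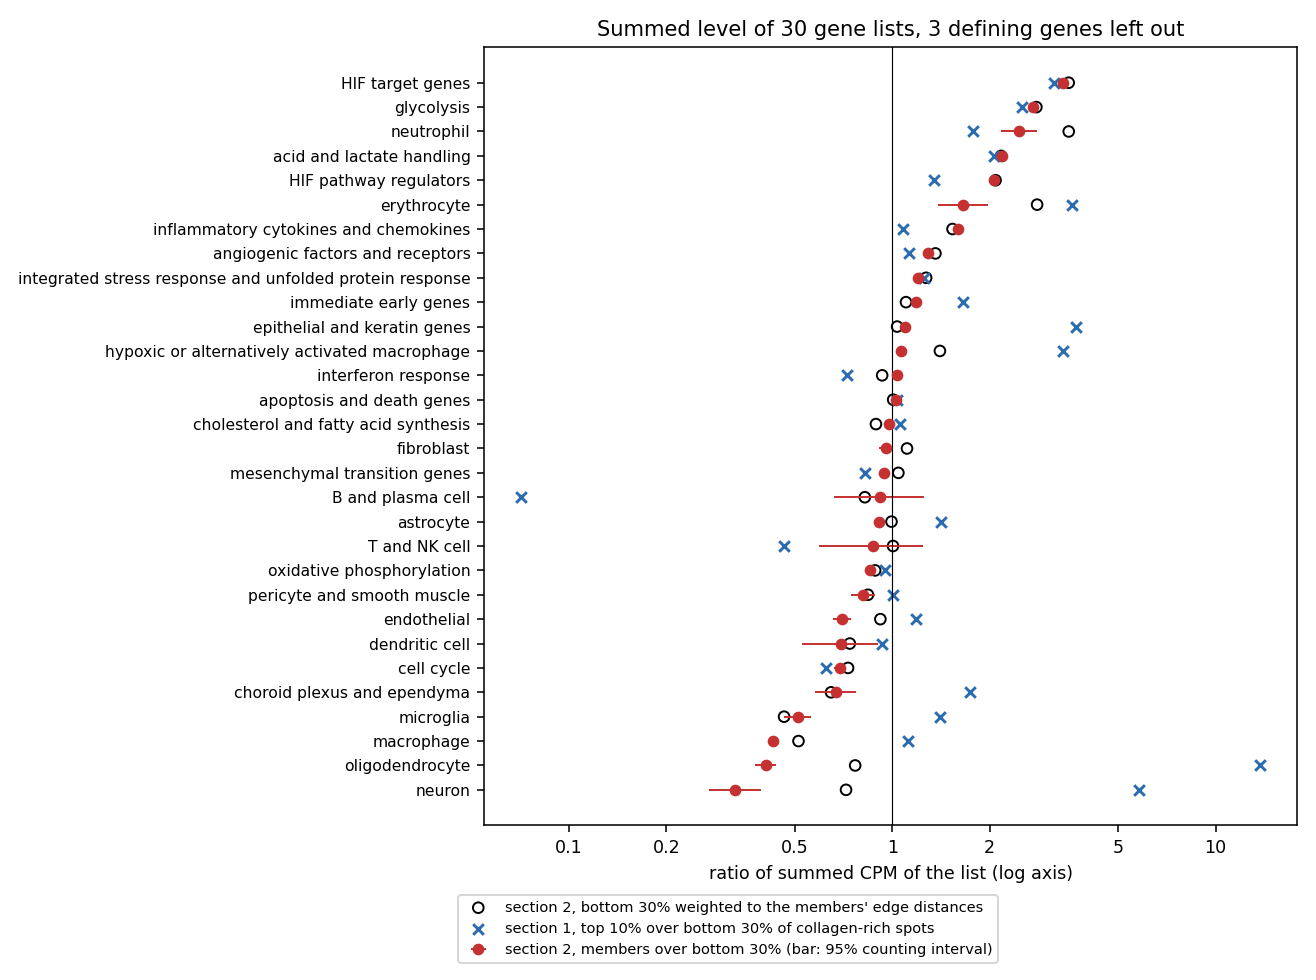
Ratio of the summed CPM of 30 gene lists (log axis) between hypoxia-marked spots and the bottom 30% of section 2 (red, with 95% counting intervals), with the bottom 30% weighted to the edge distances of the hypoxia-marked spots (open circles), and between the top 10% and bottom 30% of collagen-rich spots in section 1 (crosses, left out for fibroblasts, whose collagens chose those spots). HIF targets (3.36) and glycolysis (2.73) lead in section 2, macrophage (0.427), oligodendrocyte (0.406) and neuron (0.327) genes trail, and in section 1 the oligodendrocyte sum had a ratio of 13.7 and the B and plasma cell sum one of 0.0709.

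Position was not used in the choice. The qualifying spots formed 8 patches of touching spots on the grid, and 70 hypoxia-marked spots lay in the patch of 651 spots and 2 in that of 64. Each spot has up to 6 neighbors. Of the 424 contacts that hypoxia-marked spots had with qualifying spots, 198 (46.7%) were with other hypoxia-marked spots, although these made up 9.97% of qualifying spots, and 13 (3.07%) were with the bottom 30%, which made up 30.1%. Touching hypoxia-marked spots formed 15 patches. The largest held 31 spots, the next ones 14 and 8, and 12 patches of 1 to 3 spots held the other 19. Distance from the edge was counted in grid steps to the nearest position that was not a qualifying spot, holes and the border of the capture area included. The median was 3 steps for hypoxia-marked spots and 2 for the comparison. At the outermost step lay 6 of 72 hypoxia-marked spots (8.33%) and 108 of 217 comparison spots (49.8%), and 72.2% and 23.0% lay 3 or more steps in. The share of qualifying spots that were hypoxia-marked was 2.28% at step 1, 7.25% at step 2, 15.5% at step 3, 21.5% at step 4 and 26.8% at step 5, with 4 of 16 spots at step 6 and 0 of 1 spot at step 7. The HIF target sum of all qualifying spots was 2984 CPM at step 1, 4766 CPM at step 5, 3972 CPM at step 6 and 2510 CPM at step 7. With holes of up to 3 positions filled, the medians were 5 and 2 steps.

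**Figure D3:**
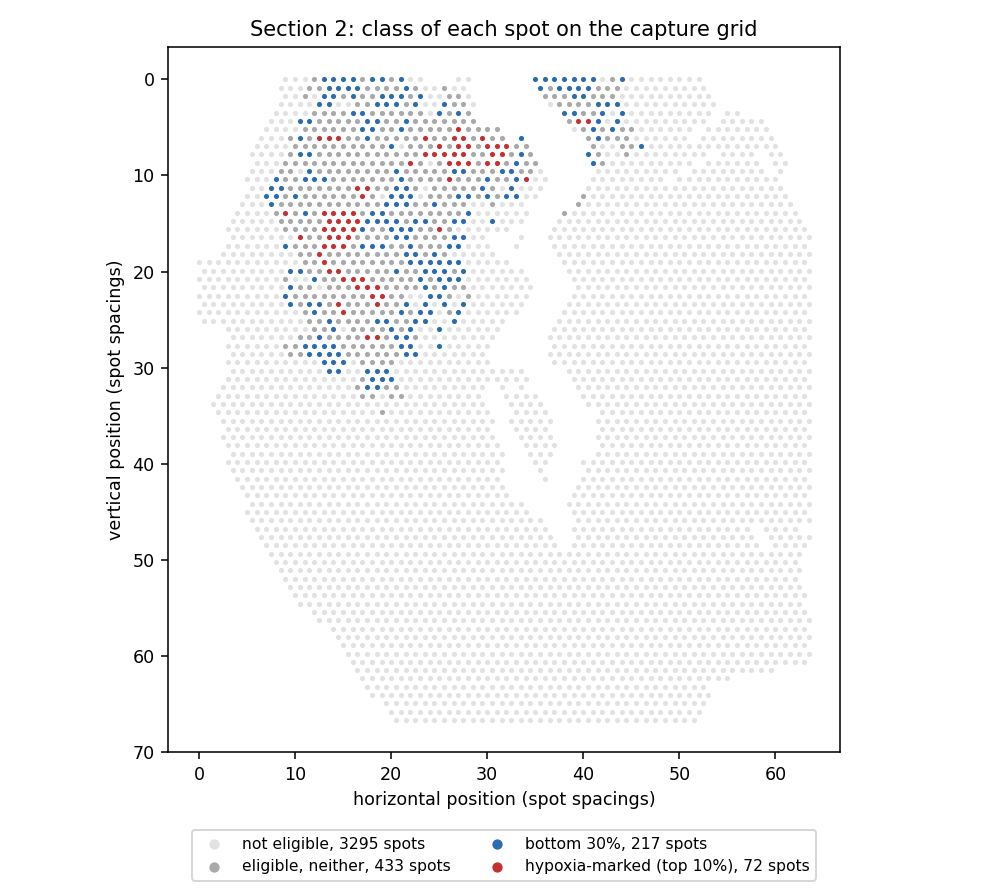
Each spot of section 2 at its place on the capture grid, in units of spot spacing: tissue spots that did not qualify (light grey), qualifying spots in neither group (dark grey), the bottom 30% (blue) and the hypoxia-marked top 10% (red). The 72 hypoxia-marked spots form 15 patches, the largest of 31 spots, with 6 spots at the outermost step of the tumor, where 108 of the 217 comparison spots lie.

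Values were also pooled by distance from the nearest hypoxia-marked spot, in grid steps. The HIF target sum, without the 3 genes used for the choice, was 7689 CPM in hypoxia-marked spots, 3833 CPM in the 143 spots touching one, 2837 CPM in the 142 spots 2 steps away and 2554 CPM in the 160 spots 4 to 5 steps away. It was 2972 CPM in the 77 spots 6 or more steps away, so the lowest value was not the farthest. *Egln3* went from 1018 CPM over 374, 173 and 142 CPM at 1, 2 and 3 steps to 69.6 CPM at 6 or more. Macrophage genes went the other way, from 1728 CPM over 2614 and 3223 CPM at 1 and 2 steps to 5307 CPM at 6 or more. Spots farther away also lay nearer to the edge, with a median of 3 steps at 1 step from a hypoxia-marked spot and 1 at 6 or more.

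The 722 spots were ordered by the 3 genes and split into 10 bins of 72 or 73 spots, bin 10 being the hypoxia-marked spots. The HIF target sum was 2191 CPM in bin 1, 2592 CPM in bin 5, 4980 CPM in bin 9 and 7689 CPM in bin 10. The sum of the 3 genes correlated with the HIF target sum (Spearman rho 0.798) and the glycolysis sum (0.813) over all 722 spots, and less with the sums for oxidative phosphorylation (-0.373), cell cycle (-0.383) and macrophage genes (-0.396). Its correlation with total UMIs was -0.131 and with edge distance 0.332. These spots share 1 library and their totals, and the values are a description. *Gclc* differed little between the lower bins, at 51.1 CPM in bin 1 and 52.2 CPM in bin 7, and then stood at 71.3 CPM in bin 8, 116 CPM in bin 9 and 267 CPM in bin 10. *Il34* and *Arg1* followed no such order, *Il34* lying between 60.7 and 71.4 CPM and *Arg1* between 280 and 437 CPM over the 10 bins.

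**Figure D4:**
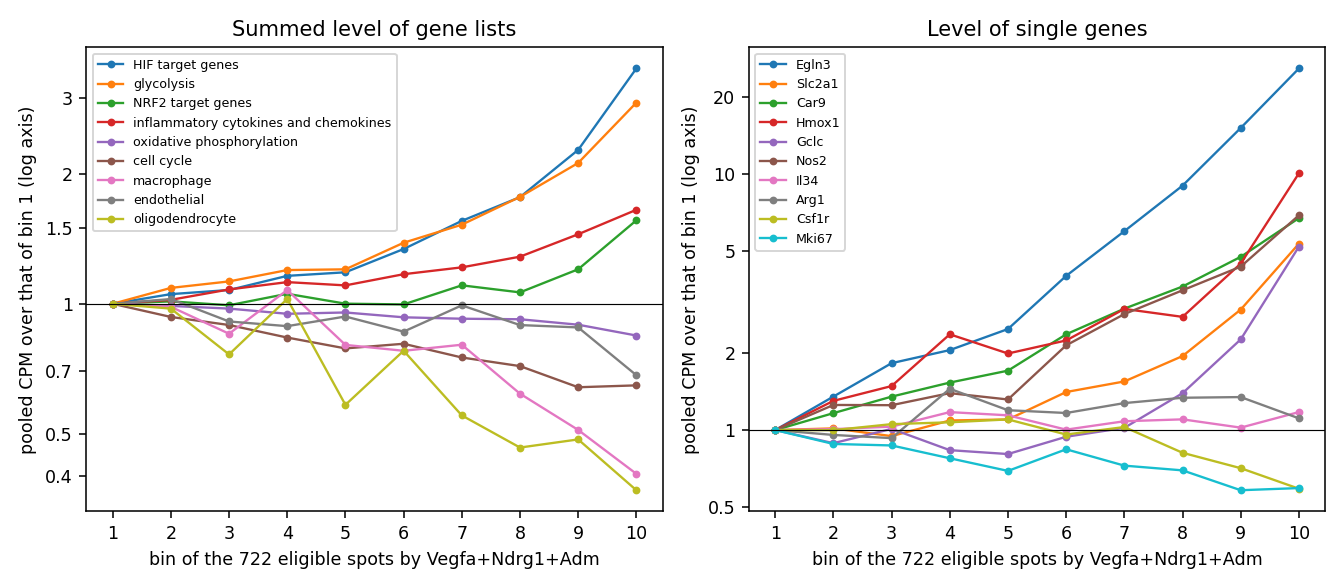
Pooled CPM in 10 bins of the 722 qualifying spots of section 2, ordered by the summed CPM of *Vegfa*, *Ndrg1* and *Adm*, over that of bin 1 (log axis), for summed gene lists (left) and single genes (right). HIF targets climb from 2191 to 7689 CPM and *Egln3* from 39.2 to 1018 CPM, the macrophage sum goes from 4281 to 1728 CPM and *Il34* stays near its start.

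Hypoxia-marked spots differed among themselves in part of the program. Over the 3 largest patches and the smaller ones together, *Slc2a1* lay between 735 and 985 CPM, *Car9* between 281 and 365 CPM and *Bnip3* between 121 and 153 CPM. *Hmox1* was at 442 CPM in the patch of 31 spots, 698 CPM in that of 14 and 879 CPM in that of 8, and *Gclc* at 213, 388 and 466 CPM. *Srxn1* was at 74.5, 197 and 177 CPM in the same order. *Nos2* ran apart, at 163, 71.9 and 235 CPM, and *Ankrd37* was highest in the largest patch at 135 CPM and 56.8 CPM in the second. In the second patch the neutrophil and endothelial genes summed to 282 and 685 CPM, against 96.6 and 393 CPM in the largest patch. The part of depth and edge distance in these values, with medians of 41127 and 34697 UMIs and of 4 and 2.5 steps in the patches of 31 and 8 spots, was not tested.

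**Figure D5:**
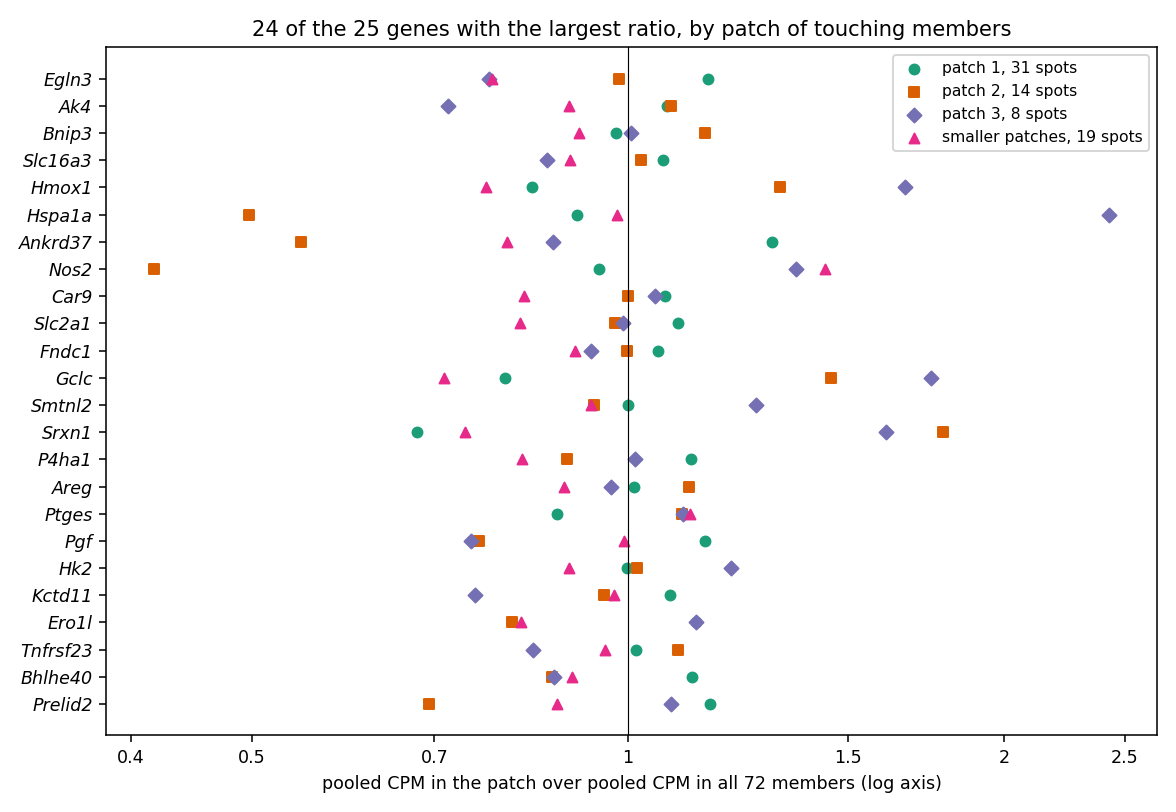
Pooled CPM of 24 of the 25 genes with the largest ratio in the patches of touching hypoxia-marked spots, over that in all 72 hypoxia-marked spots (log axis). *Car9*, *Slc2a1* and *Fndc1* stay close to 1 in every patch, *Hmox1*, *Gclc* and *Srxn1* are higher in the patches of 14 and 8 spots, and *Nos2* (71.9 CPM) and *Ankrd37* (56.8 CPM) are lowest in the patch of 14.

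Outside the qualifying tumor spots the 3 genes rarely reached this range. Of 1721 other spots of section 2 with at least 10000 UMIs, 11 (0.639%) stood at or above the lowest hypoxia-marked spot. In section 1, 2 of 856 collagen-rich spots and 1 of 807 others did. The choice itself set that cutoff, so the share among qualifying spots, 9.97%, was fixed in advance. Pooled over all 1721 other spots of section 2, *Egln3* and *Car9* were at 43.9 and 29.2 CPM. Over all qualifying spots, the 72 hypoxia-marked ones included, they were at 256 and 133 CPM, and in the comparison spots at 55.0 and 59.3 CPM. In the 1721 other spots and in all qualifying spots, *Slc16a3* was at 36.7 and 187 CPM and *Ankrd37* at 19.5 and 37.7 CPM. *Slc2a1* was at 276 and 297 CPM, *Bnip3* at 41.8 and 38.6 CPM and *Hmox1* at 363 and 155 CPM. The HIF target sum was 2584 CPM in these other spots, 3411 CPM over all qualifying spots and 2287 CPM in the comparison spots.

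The same 3 genes were then followed in the collagen-rich tumor of section 1, which the choice had not used. There 856 spots held at least 10000 UMIs and 5000 CPM of *Col1a1*, *Col1a2* and *Col3a1*. In them *Epcam*, *Krt7* and *Krt8* summed to a median of 25.3 CPM and at most 142 CPM, with a median of 0 in the top spots. The median was 7500 CPM in the 722 qualifying spots of section 2, so the 2 sections compare unlike spots. The top 10% by *Vegfa*, *Ndrg1* and *Adm* (86 spots, sums of 342 to 2305 CPM) were set against the bottom 30% (257 spots). Of 27 HIF target genes compared, 18 were higher and 1 lower in the top spots, with a median ratio of 2.03, beside 9.82% higher and 11.7% lower over all 8373 genes compared there. *Slc16a3* was at 160 and 23.1 CPM (ratio 6.90, 5.89 to 8.07), *Egln3* at 242 and 48.4 CPM (4.99, 4.43 to 5.61) and *Slc2a1* at 669 and 172 CPM (3.88, 3.63 to 4.15). Of the 25 leading genes of section 2, 14 passed the filter in section 1, of which 13 were higher. *Fndc1* was lower, at 69.9 and 326 CPM (0.214, 0.180 to 0.253). Of all 264 higher genes of section 2, 183 passed that filter, of which 78 (42.6%) were higher and 11 lower in section 1. Of the 510 lower genes, 439 passed it, of which 101 were higher and 102 lower in section 1. Cell cycle genes had a summed ratio of 0.623 there and 0.688 in section 2, and glycolysis genes 2.52 and 2.73. Other lists differed between the sections. The macrophage sum had a ratio of 1.11 in section 1 and 0.427 in section 2, and the endothelial sum 1.19 and 0.698. Of 10 genes compared from the cytokine and chemokine list in section 1, 2 were higher and 4 lower. Their median ratio was 0.853, against 1.98 in section 2.

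Other genes in the top spots of section 1 had ratios unlike those in section 2, and the difference was not tested. *Arg1* was at 1154 and 52.8 CPM (21.9, 20.1 to 23.8), *Mmp12* at 698 and 21.4 CPM and *Hmox1* at 1869 and 86.4 CPM, and the oligodendrocyte genes summed to 4756 and 347 CPM. *Il34* was lower, at 26.04 and 68.0 CPM (0.383, 0.285 to 0.504). The top spots of section 1 lay nearer to the edge than the bottom ones, at medians of 2 and 4 steps, and held medians of 23079 and 54769 UMIs. The part of edge position and depth in the values of section 1 was not tested.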

How the data were processed

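The 2 formalin-fixed sections, each 1 mouse, were profiled with Visium CytAssist probes. The authors deposited raw UMI counts per gene and spot, made with Space Ranger 2.1.1 on mm10 per the submitters' processing notes in the labels, with the position of each spot. The matrices held 19465 features, and the 11 symbols with more than 1 feature were summed, leaving 19454 genes. The sections share 3096 spot barcodes, since barcodes name array positions and not cells.

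Pooled CPM, ratios and exact conditional intervals (95%) were derived from the counts (Python 3.11.15, numpy 2.4.6, scipy 1.17.1; scaling alternative with edgeR 4.0.16). Intervals cover counting error only. The 6 genes that chose the spots were left out of the gene comparison. The steps were tested on simulated data. Genes were named by rule: the 25 largest and 25 smallest ratios, the 3 largest and 2 smallest of each list described, the genes that chose the spots, *Il34*, *Csf1*, *Csf1r*, *Arg1*, *Hif1a* and *Hmox1*. Some genes that met this rule are not reported here. A gene outside it was chosen after its values were seen. The spots and the 30 lists were chosen with earlier results of these data known, and 7 further lists (NRF2, heat shock, prostaglandin, EGF receptor ligands, iron, MHC class II and milk genes) after the values were seen. Symbols were matched to lists through RefSeq synonyms. Alternatives changed the spot filters, the share and ranking of spots, the comparison spots, depth, scaling, gene filter and edge definition.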

Additional observations from a re-analysis of the deposited data

Results flagged for a closer look

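Some named genes went past 1.5-fold one way in section 2 and the other way in section 1, with 1 section each, and the difference was not tested. *Fndc1* was higher in hypoxia-marked spots of section 2 and had a ratio of 0.214 between top and bottom collagen-rich spots of section 1. Another 15 are genes that were lower in hypoxia-marked spots of section 2 and higher in the top spots of section 1, most of them glial or neuronal. Their ratios in section 1 were 13.8 for *Apod*, 8.996 for *Gap43*, 8.38 for *Car2*, 5.49 for *Nrcam*, 5.25 for *Nfasc*, 4.25 for *Plekhb1*, 4.21 for *S100b* and 4.05 for *Serpina3n*. They were 3.74 for *Ntrk2*, 3.42 for *Gpm6a*, 2.62 for *Mt3*, 2.46 for *Slc1a2*, 2.14 for *Slc1a3*, 1.90 for *Scg3* and 1.69 for *Kcnj10*. Of the 25 genes with the smallest ratios in section 2, 23 passed the filter in section 1. Over all 439 lower genes of section 2 that passed it, 23.0% were higher and 23.2% lower in section 1, with a median ratio of 0.980. Over all 8373 genes compared in section 1, 9.82% were higher and 11.7% lower. The top spots lay at a median of 3 steps from the edge in section 2 and 2 steps in section 1, against 2 and 4 steps for the bottom spots.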

How the results depend on the processing

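The medians of HIF target, glycolysis and cell cycle genes kept their direction under all alternatives run. Counts of higher and lower genes were 416 and 904 with each spot thinned to 10000 UMIs, 413 and 837 with the top 5%, 442 and 1376 with a filter of 5 CPM (11307 genes compared), and 82 and 76 with one of 100 CPM (2506 genes). The count of lower genes was 334 with the top 20% and 855 with the largest patch only. The median log2 ratio of HIF targets was 1.75, and 1.95 with the top 5%, 1.48 with the top 20%, 1.27 against all other qualifying spots, 1.53 and 1.94 with filters of 5 and 100 CPM, and 1.57 with edge-weighted comparison spots. That of glycolysis genes was 1.35, and 1.15 with the top 20%, 1.04 against all other qualifying spots, 1.71 with spots at least 2 steps from the edge, 1.54 with 100 CPM and 1.59 edge-weighted. The edge weighting and an edge that left out the border of the capture area (median of 3 steps) were chosen after seeing the data.

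An epithelial minimum of 10000 CPM left 52 spots, of which 5 were the top 10%, 2 of them among the 72. Counts were then 907 and 1247, the HIF median 0.998, the neighbor share 0.0% and the median edge distance 1 step. With so few spots 13 named genes changed sign: log2 ratios were 0.39 for *Igfbp2*, 1.56 for *Car2*, -0.19 for *Trib3*, 0.039 for *Mcm5*, 0.13 for *Krt5*, -0.46 for *Cxcl5*, 0.43 for *Egfl7*, 0.88 for *Rgs5*, 0.62 for *Thy1*, -0.022 for *Hbb-bs*, -1.11 for *Hba-a2*, 0.81 for *Aldh1l1* and 0.011 for *Mbp*. No other alternative changed the sign of any of the 155 genes named by rule that was higher or lower. *Sprr1a*, which is outside those 155, had a ratio of 0.587 and an edge-weighted one of 1.15. The neighbor share was 37.4% with the top 5% and 57.7% with the top 20%, and the median edge distance 4 steps with the top 5% and 5 with holes filled. In section 1 the median log2 ratio of HIF targets was 1.02, and 0.69 with a collagen minimum of 20000 CPM. Choosing spots on a random part of the UMIs and measuring on the rest gave 308 and 621 genes and an HIF median of 1.77. No paired analysis was possible because the comparison is within 1 section. With 1 animal a section, no value here measures the spread between animals.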

Other observations

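Genes outside the lists and lists not yet described also differed in hypoxia-marked spots of section 2. *Espn*, an actin-bundling gene, had a ratio of 3.71 and the guidance ligand *Slit2* one of 3.62, both chosen after their values were seen. Of 4 milk protein genes compared, 1 was higher, the casein *Csn3* at 3.24. Of 7 genes for iron uptake and storage, *Tfrc* was higher and the transferrin gene *Trf* lower, at 0.246, or 0.571 when weighted by edge distance. The 3 microglia genes compared were lower, with a summed ratio of 0.510, as were both neuron genes and the 1 gene of choroid plexus and ependyma. Weighted by edge distance, 1 of the 2 neuron genes was lower, *Snap25* had a ratio of 0.676 in place of 0.310, and the summed ratio of the neuron list was 0.719 in place of 0.327. Of 6 pericyte and smooth muscle genes 1 was lower, and of 7 fibroblast genes 1 was higher and 2 were lower. The dendritic cell genes summed to 24.8 and 35.8 CPM, and 0 of them passed the filter of 20 CPM.

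In section 1 the B and plasma cell genes had a summed ratio of 0.0709 between top and bottom collagen-rich spots, from 1128 CPM in the bottom spots, and the MHC class II genes one of 0.176. In section 2 the corresponding ratios were 0.915 and 0.384. The difference between the sections was not tested.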
